A study of Mus musculus with 8 samples.

Results

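The genes followed here encode 9 signalling proteins and peptide precursors of striatal projection neurons, namely Ppp1r1b, Drd1, Drd2, Adora2a, Penk, Tac1, Pdyn, Rgs9 and Pde10a. They were picked by name, with earlier results of these data known. All 9 were found by Ensembl identifier among the 48709 genes counted, and all 9 passed the filter on low counts that left 16525 genes for testing. Their RNA was compared between the cortex of 4 dcKO_hGFAP-Cre mice and that of 4 control mice at P3 (postnatal day 3), a tissue that the methods of the study call the dorsal telencephalon (dTel). The dcKO_hGFAP-Cre mice are BAF155 fl/fl; BAF170 fl/fl with hGFAP-Cre, so that both copies of each BAF subunit gene are flanked by loxP sites and can be cut by Cre. The controls are, by the study's methods, BAF155 fl/+; BAF170 fl/+ with the same Cre, although the sample labels describe them as wild type; all mice are on a C57BL6/J background, and Cre is therefore shared by both groups under the methods' account. A human GFAP promoter drives this Cre mainly in progenitors of the dorsal telencephalon before birth, so cells born in the ventral telencephalon are largely not its target. Nothing in the labels says whether the 4 replicates of a group came from separate litters, so p-values measure only the spread between these samples, which may in part be technical.

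Striatal projection neurons are GABAergic cells that are born in the lateral ganglionic eminence of the ventral telencephalon and make up most neurons of the striatum, which lies directly beneath the cortex. Cells of the direct pathway carry the dopamine receptor Drd1 and make the peptide precursors Tac1 and Pdyn, and cells of the indirect pathway carry the dopamine receptor Drd2 and the adenosine receptor Adora2a and make Penk. Both kinds use Ppp1r1b (DARPP-32), which inhibits protein phosphatase 1 when protein kinase A phosphorylates it, Rgs9, which speeds the shut-off of G protein signals, and Pde10a, which breaks down cAMP and cGMP. Several of these genes are also transcribed in cortex, Ppp1r1b and Drd1 in deep-layer neurons and Penk and Pdyn in subsets of cortical neurons, so a cortical sample without any striatum still holds some of their RNA.

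Total counts ranged from 21126713 to 32110285 per sample. Lane 5 of the sequencer held replicates 1 and 2 of both groups, lane 6 held the replicates numbered 3 and lane 7 those numbered 4, and the dcKO_hGFAP-Cre samples are also called mutants below. Smarcc1, which encodes BAF155, measured 143.5 to 170.5 CPM (counts scaled to the same library total with edgeR's TMM factors) in control samples and 73.6 to 86.9 CPM in dcKO_hGFAP-Cre samples, and Smarcc2, which encodes BAF170, measured 469 to 500.3 CPM and 256 to 319 CPM, so all samples matched their labels. Smarcc1 shares exon sequence with Dhx30 on the opposite strand, and the strand setting of the counting is not given in the sources used here.

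Of the 9 genes, 6 were higher in dcKO_hGFAP-Cre cortex and 3 (Drd1, Adora2a and Pde10a) did not pass the threshold of 0.05 in edgeR's quasi-likelihood test, with p-values adjusted over 16525 genes by the Benjamini-Hochberg method. None was lower, which also held at an unadjusted p under 0.05 and with DESeq2 or limma-voom. Over all genes tested, 18.6% were called higher and 18.9% lower. In 3 of the 9 genes (Ppp1r1b, Tac1 and Pdyn) every dcKO_hGFAP-Cre sample lay above every control, against 16.7% of all genes tested, and in none did every dcKO_hGFAP-Cre sample lie below every control, against 17.7%. The median log2 fold change of the 9 genes was 1.54, beside 0.02 over all genes tested. Because the genes were chosen with earlier results known, these comparisons with all genes are a description and not a test. In whole tissue, a change in the number of cells that transcribe a gene and a change in RNA per cell cannot be told apart.

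**Figure D1:**
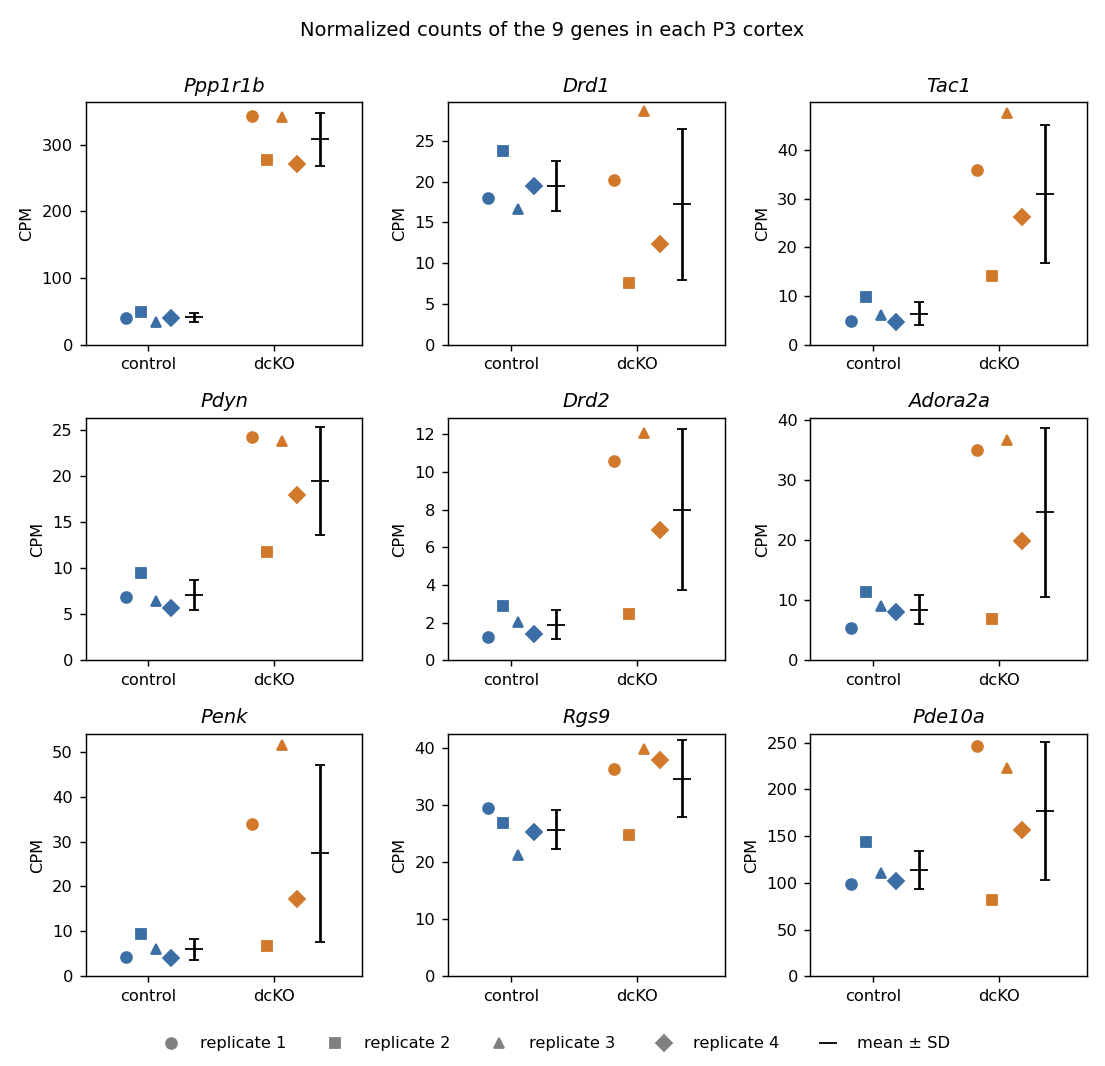
Normalized counts (CPM, vertical axes from 0) of each gene in the 4 control (blue) and 4 dcKO_hGFAP-Cre (orange) cortices, with marker shape for the replicate number and a bar for the mean ± SD. Ppp1r1b was high in all 4 dcKO_hGFAP-Cre samples, whereas the square of dcKO_hGFAP-Cre replicate 2 lay lowest of its group in 8 of the 9 panels.

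Ppp1r1b (chromosome 11 of mm10, 98348404 to 98357796, plus strand) had the largest fold change of the 9. In replicate order, here and below, it measured 39.95, 49.1, 34.2 and 39.99 CPM in the 4 controls and 343, 276, 342 and 271 CPM in the 4 mutants. All 4 dcKO_hGFAP-Cre samples lay far above all controls, and none of them stood apart from its group. The mean went from 40.8 ± 6.17 CPM (SD, n = 4) to 308 ± 39.9 CPM (SD, n = 4), a log2 fold change of 2.92 ± 0.13 (SE) with an adjusted p of 4.54e-08 in edgeR's test. The exact two-sided permutation test gave p = 0.0286, the smallest that 4 samples against 4 allow. Within lane 5 the log2 ratio of the group means was 2.80, within lane 6 it was 3.32, and within lane 7 it was 2.76. The 460 bases of exon sequence shared with the antisense gene 1700003D09Rik cannot be assigned by strand, and that gene itself had 0 to 4 counts per control sample and 25 to 56 per dcKO_hGFAP-Cre sample, beside 868 to 1152 and 6523 to 10018 counts of Ppp1r1b.

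Among the genes of the direct pathway, Drd1 did not pass the test while the peptide precursors Tac1 and Pdyn rose. Drd1 (chromosome 13, 54051183 to 54055705, minus strand), the receptor through which dopamine raises cAMP, measured 18.0, 23.8, 16.7 and 19.4 CPM in the 4 controls and 20.2, 7.58, 28.7 and 12.3 CPM in the 4 mutants. The mutant samples fell on both sides of the controls, 1 above all of them and 2 below all of them. Its log2 fold change was -0.17 ± 0.37 (SE), with an adjusted p of 0.742 in edgeR's test and an exact two-sided permutation p of 0.714. The spread among the dcKO_hGFAP-Cre samples was 3.78-fold from lowest to highest, beside 1.43-fold among controls. The log2 ratio was -0.59 in lane 5, 0.78 in lane 6 and -0.65 in lane 7, so its direction was not the same in every lane.

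Tac1 (chromosome 6, 7554879 to 7565834, plus strand), the precursor of substance P, measured 4.88, 9.76, 6.14 and 4.62 CPM in the 4 controls and 36.0, 14.1, 47.7 and 26.2 CPM in the 4 mutants. Every mutant sample was above every control, and dcKO_hGFAP-Cre replicate 2 came closest to the highest control, which was also replicate 2. Its log2 fold change was 2.30 ± 0.41 (SE), with an adjusted p of 0.00371 in edgeR's test and an exact permutation p of 0.0286. Pdyn (chromosome 2, 129686565 to 129699844, minus strand), the precursor of the dynorphins, measured 6.86, 9.46, 6.44 and 5.69 CPM in the 4 controls and 24.2, 11.8, 23.7 and 18.0 CPM in the 4 mutants. It showed the same order, with no overlap between the groups and replicate 2 lowest among mutants and highest among controls. The log2 fold change of Pdyn was 1.46 ± 0.23 (SE), with an adjusted p of 6.50e-04 in edgeR's test and an exact permutation p of 0.0286. Both genes had a positive log2 ratio in each lane, from 1.77 to 2.96 for Tac1 and from 1.14 to 1.88 for Pdyn.

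The 250 bases before the start sites of Drd1, Tac1, Pdyn and Drd2 are shown because Tac1, Pdyn and Drd2 passed the test and Drd1 did not. They come from RefSeq on GRCm38.p6, the build of mm10, as the start nearest to the annotated 5′ end of the gene, and lie at chr13:54055659-54055908 (minus strand) for Drd1, chr6:7554811-7555060 (plus) for Tac1, chr2:129699939-129700188 (minus) for Pdyn and chr9:49340153-49340402 (plus) for Drd2. Capitals mark CGTCA, the half-site of the cAMP response element, and GGGCGG, the core of a GC box, each read on both strands.
Drd1: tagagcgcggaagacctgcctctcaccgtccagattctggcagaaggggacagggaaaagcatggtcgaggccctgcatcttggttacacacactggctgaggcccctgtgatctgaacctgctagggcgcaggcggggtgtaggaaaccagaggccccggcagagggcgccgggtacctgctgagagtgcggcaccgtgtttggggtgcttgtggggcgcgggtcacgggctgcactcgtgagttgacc
Tac1: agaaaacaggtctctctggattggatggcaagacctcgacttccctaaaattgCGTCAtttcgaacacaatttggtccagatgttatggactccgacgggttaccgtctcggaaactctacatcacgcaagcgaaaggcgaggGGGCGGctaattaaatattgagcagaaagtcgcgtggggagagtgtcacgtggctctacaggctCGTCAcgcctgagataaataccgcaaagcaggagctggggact
Pdyn: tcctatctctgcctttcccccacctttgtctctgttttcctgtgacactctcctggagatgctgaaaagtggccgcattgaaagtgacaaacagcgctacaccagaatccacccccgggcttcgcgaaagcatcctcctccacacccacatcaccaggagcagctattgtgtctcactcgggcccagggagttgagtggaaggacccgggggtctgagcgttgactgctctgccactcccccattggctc
Drd2: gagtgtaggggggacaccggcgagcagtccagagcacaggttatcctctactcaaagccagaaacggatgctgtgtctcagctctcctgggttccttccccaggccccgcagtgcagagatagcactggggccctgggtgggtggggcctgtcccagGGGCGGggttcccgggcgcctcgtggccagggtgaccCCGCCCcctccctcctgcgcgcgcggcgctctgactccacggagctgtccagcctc
The stretch of Tac1 held 2 CGTCA and 1 GGGCGG, that of Drd2 held 2 GGGCGG and no CGTCA, and those of Drd1 and Pdyn held neither. Over 32851 promoter stretches of the same length, 17.8% held CGTCA and 32.7% held GGGCGG. The letters TGACGTCA (1.55% of all stretches), TGANTCA (6.75%) and TATAAA (12.4%) were in none of the 4. RefSeq stretches were matched for 6 of the 9 genes, the others being Rgs9 and Pde10a, and none for Ppp1r1b, Adora2a and Penk. The start used for Drd2 lies 224 bases from the 5′ end of the GENCODE gene and that for Drd1 lies 47 bases from it. For Tac1 the distance is 182 bases and for Pdyn 94 bases. The starts used for Tac1 and Drd1 lie inside the annotated gene, and so does part of each stretch. In Tac1 this part is most of the stretch and holds the GGGCGG and the CGTCA nearer the start. The other CGTCA of Tac1 lies before the annotated gene.

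Of the indirect-pathway genes, Drd2 and Penk rose on average and Adora2a lay just short of the threshold, and in all 3 the change rested on 3 of the 4 mutants. Drd2 (chromosome 9, 49340627 to 49408177, plus strand), the receptor through which dopamine lowers cAMP, measured 1.24, 2.91, 2.06 and 1.42 CPM in the 4 controls and 10.6, 2.46, 12.1 and 6.91 CPM in the 4 mutants. Replicates 1, 3 and 4 of dcKO_hGFAP-Cre were above all controls, and replicate 2 was inside the control range. The log2 fold change was 2.08 ± 0.48 (SE), with an adjusted p of 0.00984 in edgeR's test and an exact permutation p of 0.0571. Drd2 was the gene with the fewest reads, 27 to 62 counts in control samples and 58 to 354 in dcKO_hGFAP-Cre samples.

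Penk (chromosome 4, 4133531 to 4138819, minus strand), the precursor of the enkephalins, measured 4.23, 9.32, 6.18 and 4.13 CPM in the 4 controls and 33.99, 6.69, 51.5 and 17.3 CPM in the 4 mutants. Again replicate 2 of the mutants was within the control range, and the other 3 were above it. On the log2 scale the fold change was 2.21 ± 0.65 (SE), with an adjusted p of 0.0351 in edgeR's test and an exact permutation p of 0.0571. The call of Penk did not hold when control replicate 1, 3 or 4 or dcKO_hGFAP-Cre replicate 1 or 3 was left out, with edgeR adjusted p between 0.0680 and 0.0968. An antisense gene that shares 233 bases of its exons, A830012C17Rik, had 0 to 4 counts per sample.

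Adora2a (chromosome 10, 75316877 to 75334784, plus strand), the adenosine receptor that opposes Drd2 in the same cells, measured 5.43, 11.4, 8.997 and 8.02 CPM in the 4 controls and 34.9, 6.91, 36.7 and 19.9 CPM in the 4 mutants. The same 3 mutants exceeded all controls, and replicate 2 was below 3 of the 4 controls. The log2 fold change was 1.54 ± 0.51 (SE), with an adjusted p of 0.0514 in edgeR's test and an exact permutation p of 0.114. Without dcKO_hGFAP-Cre replicate 2 the log2 fold change was 1.84, with an edgeR adjusted p of 8.78e-04. These same genes single out that sample, so its omission is no independent support. It was the only 1 of the 8 omissions of a single sample in which Adora2a passed, and the edgeR adjusted p ran up to 0.119.

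The genes used by both kinds of projection neuron had smaller fold changes than the peptide precursors, apart from Ppp1r1b. Rgs9 (chromosome 11, 109225355 to 109298129, minus strand) measured 29.6, 26.8, 21.4 and 25.3 CPM in the 4 controls and 36.3, 24.7, 39.9 and 37.9 CPM in the 4 mutants. Replicate 2 of the mutants lay among the controls and the other 3 above them. On the log2 scale the fold change was 0.43 ± 0.15 (SE), with an adjusted p of 0.0349 in edgeR's test and an exact permutation p of 0.114. The call did not hold when control replicate 2, 3 or 4 or dcKO_hGFAP-Cre replicate 1, 3 or 4 was left out, with edgeR adjusted p between 0.0689 and 0.109.

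Pde10a (chromosome 17, 8525372 to 8986648, plus strand) measured 98.8, 144, 111 and 102 CPM in the 4 controls and 246, 82.1, 223 and 157 CPM in the 4 mutants. Replicates 1, 3 and 4 of the mutants were above all controls, and replicate 2 was below all of them. The log2 fold change was 0.64 ± 0.33 (SE), with an adjusted p of 0.169 in edgeR's test and an exact permutation p of 0.229. Leaving out dcKO_hGFAP-Cre replicate 2, again the sample that these genes single out, gave 0.87 with an edgeR adjusted p of 0.00389. Pde10a passed in only that 1 of the 8 omissions of a single sample, and the edgeR adjusted p ran up to 0.338.

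**Figure D2:**
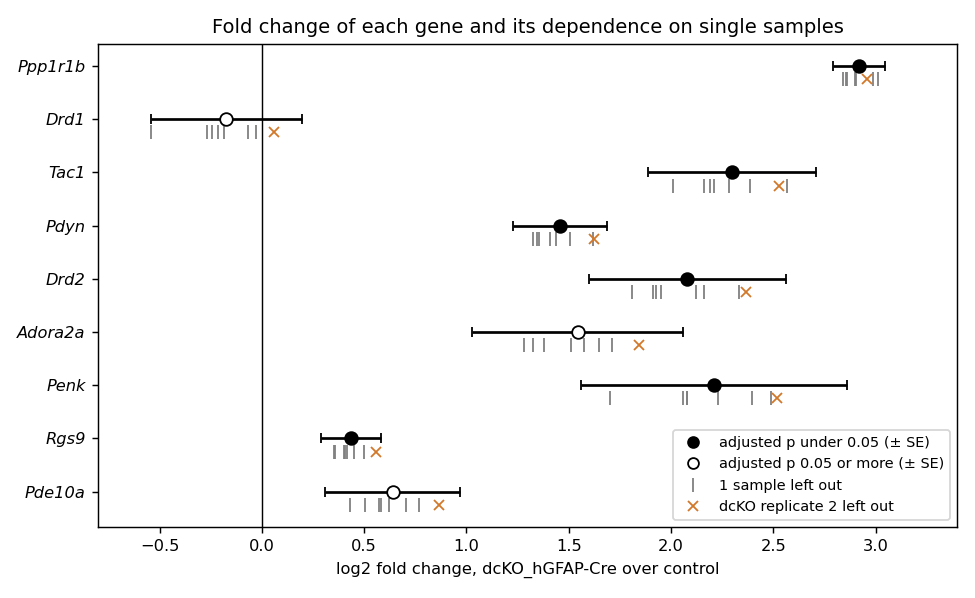
Log2 fold change of each gene, dcKO_hGFAP-Cre over control (horizontal axis), with its SE; filled circles passed an adjusted p of 0.05 and open circles did not. Grey ticks and the orange cross show the estimate after 1 sample was left out; without dcKO_hGFAP-Cre replicate 2, the estimate for Drd1 was 0.057 and for Adora2a 1.84, while that for Ppp1r1b stayed between 2.84 and 3.01 whichever sample was left out.

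The samples of each group were then set side by side. dcKO_hGFAP-Cre replicate 3 exceeded every control in all 9 genes, replicates 1 and 4 in 8 each (the exception was Drd1), and replicate 2 in 3 (Ppp1r1b, Tac1 and Pdyn). Relative to the mean of the other 3 mutants, replicate 2 held 0.868 of their Ppp1r1b, 0.651 of their Rgs9 and 0.536 of their Pdyn. For the remaining 6 genes it held between 0.195 (Penk) and 0.394 (Pde10a). The log2 ratio of the group means was positive in each lane for every gene but Drd1, from 1.65 to 2.55 for Drd2, 1.59 to 3.06 for Penk, 1.31 to 2.03 for Adora2a, 0.11 to 0.90 for Rgs9 and 0.44 to 1.01 for Pde10a. With lane as a term in edgeR's fit, the adjusted p was 0.0806 for Penk and 0.0507 for Rgs9, and no other call among the 9 was lost. Among controls, replicate 2 lay above the control mean in all 9 genes and replicate 4 in none. Both animals numbered 2 ran on lane 5, as did both numbered 1. Without dcKO_hGFAP-Cre replicate 2, the sample that these same genes single out, edgeR called 8 of the 9 higher, Drd1 being the other gene, beside 14.1% of all genes tested in that setting.

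**Figure D3:**
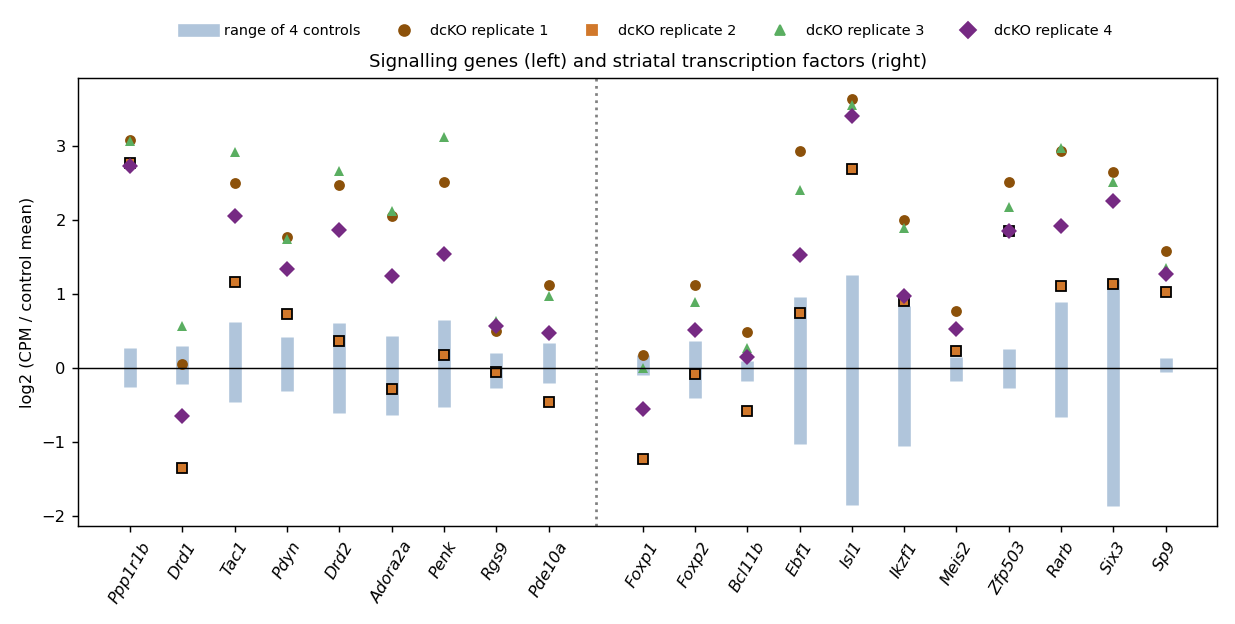
Log2 ratio of each dcKO_hGFAP-Cre sample to the control mean (vertical axis) for the 9 signalling genes, left of the dotted line, and 11 transcription factors of striatal projection neurons, right of it; blue bars span the 4 controls. Replicate 2 (outlined square) lay lowest for most genes in both sets, with Ppp1r1b, Zfp503 and Sp9 among those where it stayed above all controls.

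Levels of different genes were compared per kilobase of exon. In control cortex the order was Ppp1r1b (13.9 CPM per kb), Pde10a (8.86), Drd1 (5.37), Rgs9 (4.03), Penk (3.65), Adora2a (2.76), Pdyn (2.46), Tac1 (1.87) and Drd2 (0.749). The SDs of neighbours from Drd1 to Tac1 overlapped, being 0.855 for Drd1, 0.538 for Rgs9, 1.48 for Penk, 0.805 for Adora2a, 0.568 for Pdyn and 0.697 for Tac1. In dcKO_hGFAP-Cre cortex Ppp1r1b led with 105 CPM per kb, followed by Penk (16.7), Pde10a (13.8), Tac1 (9.12), Adora2a (8.04), Pdyn (6.73), Rgs9 (5.43), Drd1 (4.74) and Drd2 (3.15). Below Ppp1r1b the SDs of neighbours overlapped throughout, the widest being that of Penk at 12.0 CPM per kb. Drd1 thus stood in the third place in controls and the eighth in mutants. The overlapping SDs of neighbours leave these places uncertain, and the change of Drd1 itself did not pass the test.

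Because Drd1 varied so widely among the mutants, the counts of each other gene were divided by those of Drd1 in the same sample, a measure that needs no scaling between samples and that was chosen after the values were seen. For Ppp1r1b this ratio was 2.22, 2.06, 2.05 and 2.06 in controls against 17.0, 36.4, 11.9 and 21.9 in mutants. The controls were almost constant, and replicate 2, low for most genes, had the highest ratio. The Tac1 to Drd1 ratio was 0.271, 0.410, 0.368 and 0.237 in controls and 1.78, 1.86, 1.66 and 2.12 in mutants, so that here replicate 2 no longer differed from the rest of its group. The Drd2 to Drd1 ratio was 0.0690, 0.122, 0.123 and 0.0732 in controls and 0.524, 0.324, 0.421 and 0.560 in mutants. For 7 of the 8 genes every mutant ratio exceeded every control ratio, beside 4.59% of all other genes tested when divided by Drd1, and Rgs9 was the exception, with 1.13 to 1.64 in controls and 1.39 to 3.26 in mutants. The mean ratio of Penk to Drd1 went from 0.302 to 1.44, that of Adora2a from 0.433 to 1.38, that of Pdyn from 0.364 to 1.26 and that of Pde10a from 5.85 to 10.9. The 8 ratios share 1 denominator and are not independent of each other. Replicate 2 was the lowest mutant for Drd1 as for most of the other signalling genes, so division takes out spread that they share. It adds that spread to genes without it, so 4.59% is not a neutral background. Undivided, the share over all genes tested was 16.7%.

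**Figure D4:**
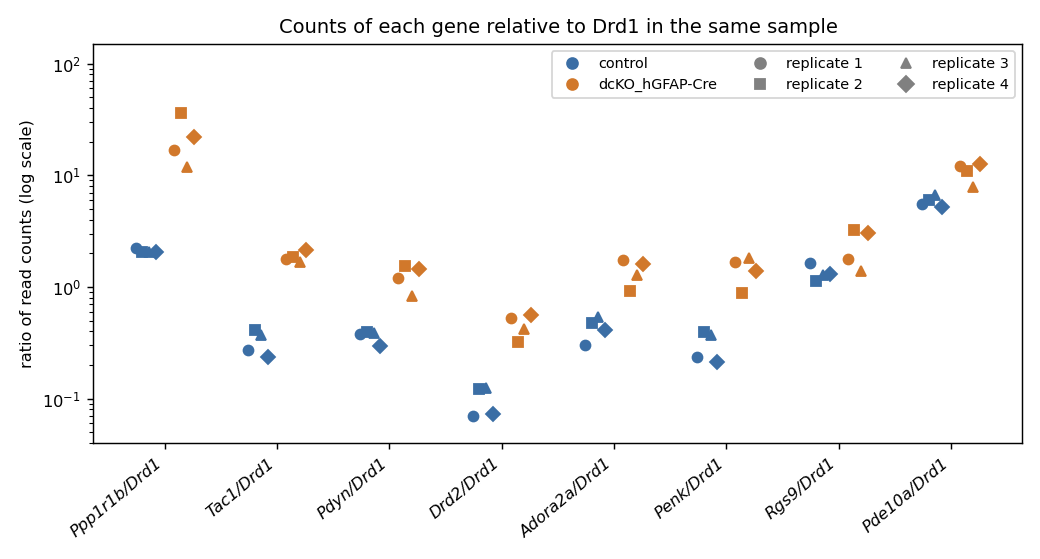
Read counts of each gene divided by those of Drd1 in the same sample (log axis), in control (blue) and dcKO_hGFAP-Cre (orange) cortices, with marker shape for the replicate number. The groups overlapped only for Rgs9; the ratio of Ppp1r1b lay between 2.05 and 2.22 in controls and between 11.9 and 36.4 in mutants.

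Beyond these 9, a list of 44 genes of the same signalling pathways was examined, of which 41 were tested. Of these, 8 were higher and 9 lower, shares near those of all genes tested (18.6% higher and 18.9% lower). Their median log2 fold change was -0.03, beside 0.02 for all genes tested. With library totals as the scale 14 were higher and 5 lower, beside 4584 and 2102 of all 16525 genes tested. Without dcKO_hGFAP-Cre replicate 2 there were 13 and 7, beside 2397 and 2663 of 16943. Among 9 receptors tested, Oprk1, the kappa opioid receptor on which dynorphins act, rose from 1.80 ± 0.64 to 4.34 ± 0.75 CPM (SD, n = 4; log2 fold change 1.29, edgeR adjusted p 0.00157), and Cnr1, the cannabinoid receptor, fell from 309 ± 22.3 to 208 ± 11.2 CPM (-0.57, 1.46e-04). The other 7 did not pass, but 4 receptors were called higher without dcKO_hGFAP-Cre replicate 2 and 3 with DESeq2 or with library totals. Among 9 G proteins, adenylyl cyclase and RGS partners, 3 were higher and 2 lower, or 5 higher with library totals as the scale. Rgs2 (29.9 to 74.7 CPM) and Gng7 (192 to 307 CPM), the latter a G protein subunit that couples to adenylyl cyclase in striatum, were higher, whereas Rgs7 (77.5 to 48.1 CPM) and its anchor Rgs7bp (39.4 to 24.0 CPM) were lower. Gnal, the G protein that couples Drd1 to the cyclase, measured 424 CPM in control and 425 CPM in dcKO_hGFAP-Cre cortex (edgeR adjusted p 0.987) and is named with its value in view.

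Of 5 other phosphodiesterases, Pde1b was higher (79.2 to 114 CPM, log2 fold change 0.53, edgeR adjusted p 0.0428) and Pde4d lower (68.9 to 52.2 CPM, -0.40, 0.00657). Of 13 kinases, phosphatases and their regulators, 2 were higher and 4 lower, beside 18.6% and 18.9% of all genes tested. The same shares stand beside the other lists of this paragraph. With library totals as the scale 4 were higher and none lower, beside 4584 and 2102 of all 16525 genes tested. Rasd2, a small GTPase of striatal neurons, measured 9.51 and 13.7 CPM and Cdk5, a kinase that phosphorylates DARPP-32, measured 116 and 139 CPM in control and dcKO_hGFAP-Cre cortex, both higher. Ppp1r1a, the related inhibitor of protein phosphatase 1, fell from 127 to 96.0 CPM, in contrast to Ppp1r1b. Prkar2b, a regulatory subunit of protein kinase A, fell from 362 to 305 CPM. Of 5 genes for processing peptide precursors, Pcsk2, a convertase that cleaves such precursors, fell from 174 ± 11.8 to 70.9 ± 19.7 CPM (SD, n = 4; log2 fold change -1.30, edgeR adjusted p 3.54e-04), and Scg5, its chaperone, rose from 126 to 158 CPM. The count of lower kinase and phosphatase genes went to 0 or 1 in 5 of the 8 omissions of a single sample, and in 7 of them no phosphodiesterase was called higher.

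Transcription factors of striatal projection neurons were read as markers of the cell class. Of 11, 8 were higher and none lower (none also at an unadjusted p under 0.05 and with DESeq2 or limma-voom), with a median log2 fold change of 1.55. Over all genes tested, 18.6% were higher and 18.9% lower. This list, too, was chosen with earlier results of these data known. Bcl11b, Foxp1 and Foxp2, which cortical neurons also transcribe, did not pass. Meis2 did pass, although it had the highest mean of the 11 in control cortex (219 CPM). What part cortical cells had in these calls was not tested. Zfp503 rose from 3.28 ± 0.51 to 14.3 ± 3.28 CPM (SD, n = 4; log2 fold change 2.13, edgeR adjusted p 5.92e-06) and Sp9, a factor of Drd2 cells, from 14.7 ± 0.95 to 36.6 ± 5.7 CPM (1.31, 8.22e-06). dcKO_hGFAP-Cre replicates 1, 3 and 4 each exceeded all controls in 10 of the 11, and replicate 2 in 6. The summed level was 1113, 578, 966 and 815 CPM in dcKO_hGFAP-Cre replicates 1 to 4, beside 597 to 761 CPM in controls. Foxp1, Bcl11b and Meis2 made up most of this sum, with control means of 200, 193 and 219 CPM. In dcKO_hGFAP-Cre replicate 2, Foxp1 (84.5 CPM) and Bcl11b (129 CPM) lay below all controls, so its low sum does not describe the other factors. The summed level of the 9 signalling genes was 786, 433, 805 and 566 CPM, beside 209 to 286 CPM in controls. In both sums replicate 2 was the lowest mutant. The factor count was 5 in place of 8 with no filter on low counts, with the replicate number as a block and without control replicate 3, and 10 without dcKO_hGFAP-Cre replicate 2.

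Markers of other cells that a cortical dissection can hold are given for the same samples, and their part in the results above was not tested. The counts below stand beside 18.6% of all genes tested called higher and 18.9% called lower. Of 8 markers of cortical glutamatergic neurons, 7 were lower, and their sum was 1631 to 1852 CPM in controls and 754 to 934 CPM in mutants, the defining ones being present in every sample. Neurod6, a transcription factor of these neurons, fell from 415 to 101 CPM. All 7 markers of GABAergic neurons were higher, with sums of 356 to 391 CPM and 566 to 635 CPM, and Gad1, which makes GABA, rose from 94.7 to 173 CPM and Dlx5 from 11.5 to 20.9 CPM. Replicate 2 of the mutants, at 602 CPM, did not lie below its group in this sum. Of 7 markers of cortical interneurons, 3 were higher, with sums of 351 to 408 CPM and 508 to 577 CPM, among them Sst (97.9 to 199 CPM) and Lhx6 (103 to 133 CPM).

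Markers from beneath or beside the cortex were also examined, again beside 18.6% of all genes tested called higher. Of 7 markers of basal forebrain cholinergic and pallidal neurons 5 were tested and 4 were higher, among them Gbx1 (0.163 to 3.87 CPM) and Nkx2-1 (1.28 to 3.98 CPM). Their sum was 2.48 to 5.03 CPM in controls and 18.0, 10.1, 15.9 and 11.7 CPM in dcKO_hGFAP-Cre replicates 1 to 4. Chat, which defines cholinergic neurons, was at 0.0330 CPM in controls and 0.178 CPM in mutants on average, near the limit of detection. Of 7 markers of thalamus and midbrain 6 were tested and 4 were higher, among them Gbx2 (0.0206 to 1.49 CPM) and Lhx9 (1.999 to 12.9 CPM). Their sums were 52.7 to 64.9 CPM in controls and 70.3 to 104 CPM in mutants, most of it Slc17a6, a transporter of glutamatergic neurons that was not called (51.9 to 61.1 CPM, edgeR adjusted p 0.177). The 7 markers of choroid plexus summed to 8.07 to 16.7 CPM in controls and to 622, 1186, 23.5 and 8.33 CPM in dcKO_hGFAP-Cre replicates 1 to 4, and most of the sums in replicates 1 and 2 was Ttr (584, 1128, 15.8 and 1.72 CPM in the mutants), which was not called (edgeR adjusted p 0.0568). The other 6 markers together summed to 37.96, 58.1, 7.68 and 6.61 CPM in the mutants and to 6.49 to 8.19 CPM in controls. Of the 7, Clic6 (0.673 to 8.02 CPM) and Kcne2 (0.380 to 4.03 CPM) were called higher, a count that ran from 0 to 5 over the omissions of a single sample. With replicates 1 and 2 both left out, a choice made after seeing the data, 8 of the 9 signalling genes were called higher by edgeR, beside 8.06% of all genes tested in that setting. Leaving out dcKO_hGFAP-Cre replicate 2 alone, the lowest mutant in most of these genes, already gave 8. The count therefore cannot show what part choroid plexus had, which was not tested.

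The genes with the most similar profiles were sought for Ppp1r1b, Drd1 and Drd2, by the smallest root mean square difference over the 8 samples in log2 CPM relative to the gene's own control mean, among 14609 genes with a mean of at least 1 CPM. Nearest to Ppp1r1b were Asb4 (difference 0.274), Neurog2 (0.343), Nup62cl (0.367), Gna14 (0.378) and Ptx3 (0.405). Nearest to Drd1 were Tpbg (0.215), Samd9l (0.222), Kcnab1 (0.226), Foxp1 (0.227) and Itpka (0.235). Nearest to Drd2 were Ankrd63 (0.117), Lhx8 (0.208), Penk (0.220), Myo3b (0.303) and Strip2 (0.304). Penk was the only other signalling gene of the 9 on these lists, and each list kept its 5 genes when library totals set the scale. The likeness is a description over 8 samples that differ in genotype.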

How the data were processed

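RNA of P3 cortex (TRIZOL, TruSeq RNA v2, a kit that does not mark strand) was sequenced by the authors, aligned to mm10 and counted per gene with featureCounts; the files they deposited hold raw counts, not normalized. The aligner, annotation and strand setting are not given in the sources used here. Identifiers were matched to GENCODE names of the same build. Counts were tested with edgeR 4.0.16 (R 4.3.3; TMM, minimum count 10, robust quasi-likelihood F test, no block, Benjamini-Hochberg, threshold 0.05) in 4 against 4 samples grouped by their titles; SEs were derived from F, and log2 CPM used a prior count of 2. Exact permutation tests used 70 arrangements. A floor of 3 counts is 0.0934 to 0.142 CPM per sample and covers counting error only. Alternatives were DESeq2 1.42.0, limma-voom (limma 3.58.1), other scalings, other filters, a replicate or lane block and each sample left out. Methods were tested on simulated data in which far fewer genes changed than were called here. That test does not cover scaling under so widespread a change.

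The genes and lists were chosen with earlier results of these data known. Named genes are the 9 signalling genes, Smarcc1 and Smarcc2, the 2 most significant per direction of each list (or, where fewer than 2 were called, the 2 most abundant), and the 5 most similar profiles. Gpr52 was not analysed here, and 1 gene that the rule names is not reported here. No replicates agreed within sampling noise. The replicate numbers were not used as pairs.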

Additional observations from a re-analysis of the deposited data

How the results depend on the processing

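Ppp1r1b, Tac1 and Pdyn passed the threshold in all 8 omissions of 1 sample and in the 8 other settings, and Drd2 in all but the replicate block (edgeR adjusted p 0.0677). Penk passed in 3 omissions and 4 other settings, Rgs9 in 2 and 7, Adora2a in 1 and 4, Pde10a in 1 and 0, and Drd1 in none. Drd1 ran from -0.54 to 0.057 on the log2 scale over the omissions and changed sign without dcKO_hGFAP-Cre replicate 2 (0.057), without replicate 2 of both groups and without dcKO_hGFAP-Cre replicates 1 and 2 together (0.069), a setting chosen after seeing the data; the cause was not tested. That setting, which has 2 mutants, called 2969 genes (1388 higher, 1581 lower) in place of 6202 (3074 and 3128), and left 8 of the 9 genes with non-overlapping groups, a count that ran from 3 to 8 over the omissions of 1 sample (5 without control replicate 2, 8 without dcKO_hGFAP-Cre replicate 2). Over all genes the share with such groups was 19.9% in that setting, 18.7% without control replicate 2 and 18.3% without dcKO_hGFAP-Cre replicate 2. Leaving out replicate 2 of both groups, also chosen after seeing the data and by the very genes it bears on, called 3957 genes (1816 higher, 2141 lower), left the same count of 8 (20.5% of all genes) and gave Drd1 0.17, so it supports nothing. Those omissions of 1 sample called 4574 to 6471 genes (2199 to 3308 higher, of 16481 to 17044 tested) and 4 to 8 of the 9, all higher. With library totals 68.6% of called genes were higher, against 49.6%, and the median over all genes was 0.15 against 0.02 (log2). In that setting 7 of the 9 genes were called higher, beside 4584 of all 16525 genes tested, against 3074 in the main fit. The deviations of same-numbered samples from their group means correlated at -0.0679 to 0.213. With 4 pairs, and with numbers tied to lanes, these values cannot show whether the numbers pair the samples. With the replicate block 5914 of 16525 genes (2932 higher, 2982 lower) and 4 of the 9 were called. Counts of 27 to 62 in controls limit the precision of Drd2.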
